A study of Mus musculus with 4 samples.

Results

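The genes of the Notch receptors and their ligands were examined in murine embryonic stem cells. They comprise the 4 receptor genes Notch1, Notch2, Notch3 and Notch4 and the 5 ligand genes Jag1, Jag2, Dll1, Dll3 and Dll4. Every array probe set annotated with 1 of these gene symbols and no other was taken, which gave 18 probe sets of 34958 that carry a single symbol, and 9 genes of 18194. Arrays were hybridised with RNA of CM7/1 embryonic stem cells with Hey2 or Hey1 overexpression, called the Hey2 line and the Hey1 line here. The 4 groups were the Hey2 line after 1000 ng/ml doxycycline for 48 h (Hey2 induced), the Hey2 line labelled as control (Hey2 uninduced), the Hey1 line after the same doxycycline treatment (Hey1 induced) and the Hey1 line labelled as control (Hey1 uninduced). Each group had 1 array, without replicates. A difference between 2 arrays is therefore given without a p-value. No source used here gives the vector, the number of clones behind each line, or cells that lack an introduced Hey gene.

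Notch receptors are single-pass membrane proteins that bind Jagged or Delta-like ligands on a neighbouring cell. Binding leads to cleavage of the receptor, and its intracellular domain enters the nucleus, joins the DNA-binding protein Rbpj and activates genes such as those of the Hes and Hey repressors. Hey1 and Hey2 thus act downstream of the receptors, and the comparisons ask how the genes at the top of the pathway differed after induction of its repressor targets. In mouse embryonic stem cells Notch signalling is known for its part in the choice of a neural fate on leaving self-renewal.

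All values are log2 probe set levels, and 11 of the 18 probe sets reached the level filter of 6.05, the median of all values, in at least 1 array. These 11 covered 8 genes, since neither Dll4 probe set reached it. The probe set nearest to the filter from above was that of Dll1, with a highest value of 6.47, and the nearest from below was a Notch3 probe set, with a highest value of 6.01. A probe set has its own affinity, so levels are compared between arrays and never between probe sets. Probe sets of the same gene read the same RNA and are not replicates.

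The labels and the cell type were checked first. All 10 stem cell markers, among them Pou5f1 and Nanog, were above the filter. The log2 of their summed linear values was 16.6 in every array, a sum set mostly by the brightest markers. Single markers did differ between arrays. Klf4 had differences of 0.61 for the Hey2 line and -0.13 for the Hey1 line. Nanog differed by -0.54 between the uninduced arrays, Hey2 line minus Hey1 line. The Hey2 probe set stayed below the filter and read 4.34 in Hey2 induced cells, against 4.25 in Hey2 uninduced cells, and 4.51 in Hey1 induced cells, against 4.84 in Hey1 uninduced cells. The Hey1 probe set read 6.25 in Hey2 induced cells, against 6.72 in Hey2 uninduced cells, and 6.51 in Hey1 induced cells, against 6.73 in Hey1 uninduced cells. Neither factor was thus higher at its own probe set after its own induction by more than 0.09, and "induced" here means the array labelled so. No source used here states whether these probe sets detect RNA from the introduced genes.

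Jag1, which encodes a Jagged ligand of Notch receptors, showed the lowest induced-minus-uninduced differences of the 9 genes in both lines. Its brightest probe set, 1434070_at, read 7.004 in Hey2 induced cells, against 8.38 in Hey2 uninduced cells. It read 7.67 in Hey1 induced cells, against 8.62 in Hey1 uninduced cells. Both induced arrays lay below both uninduced arrays, and the lowest of the 4 was Hey2 induced. The log2 difference was -1.37 for the Hey2 line and -0.95 for the Hey1 line, or 2.59-fold and 1.94-fold lower. Among the 21097 probe sets compared, 15 had a difference at or below that of Jag1 for the Hey2 line and 12 for the Hey1 line.

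The other Jag1 probe sets were lower after induction too, by less. The probe set 1421106_at read 5.76 in Hey2 induced cells, against 6.54 in Hey2 uninduced cells, and 6.23 in Hey1 induced cells, against 6.78 in Hey1 uninduced cells. Its differences were -0.78 and -0.55 in the Hey2 and Hey1 lines. The third, 1421105_at, stayed below the filter and read 5.49 in Hey2 induced cells, against 5.72 in Hey2 uninduced cells, and 5.29 in Hey1 induced cells, against 5.70 in Hey1 uninduced cells. In each of the 3 probe sets both induced arrays lay below both uninduced arrays. The size is thus uncertain, from 1.17-fold to 2.59-fold in the Hey2 line and from 1.33-fold to 1.94-fold in the Hey1 line.

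**Figure D1:**
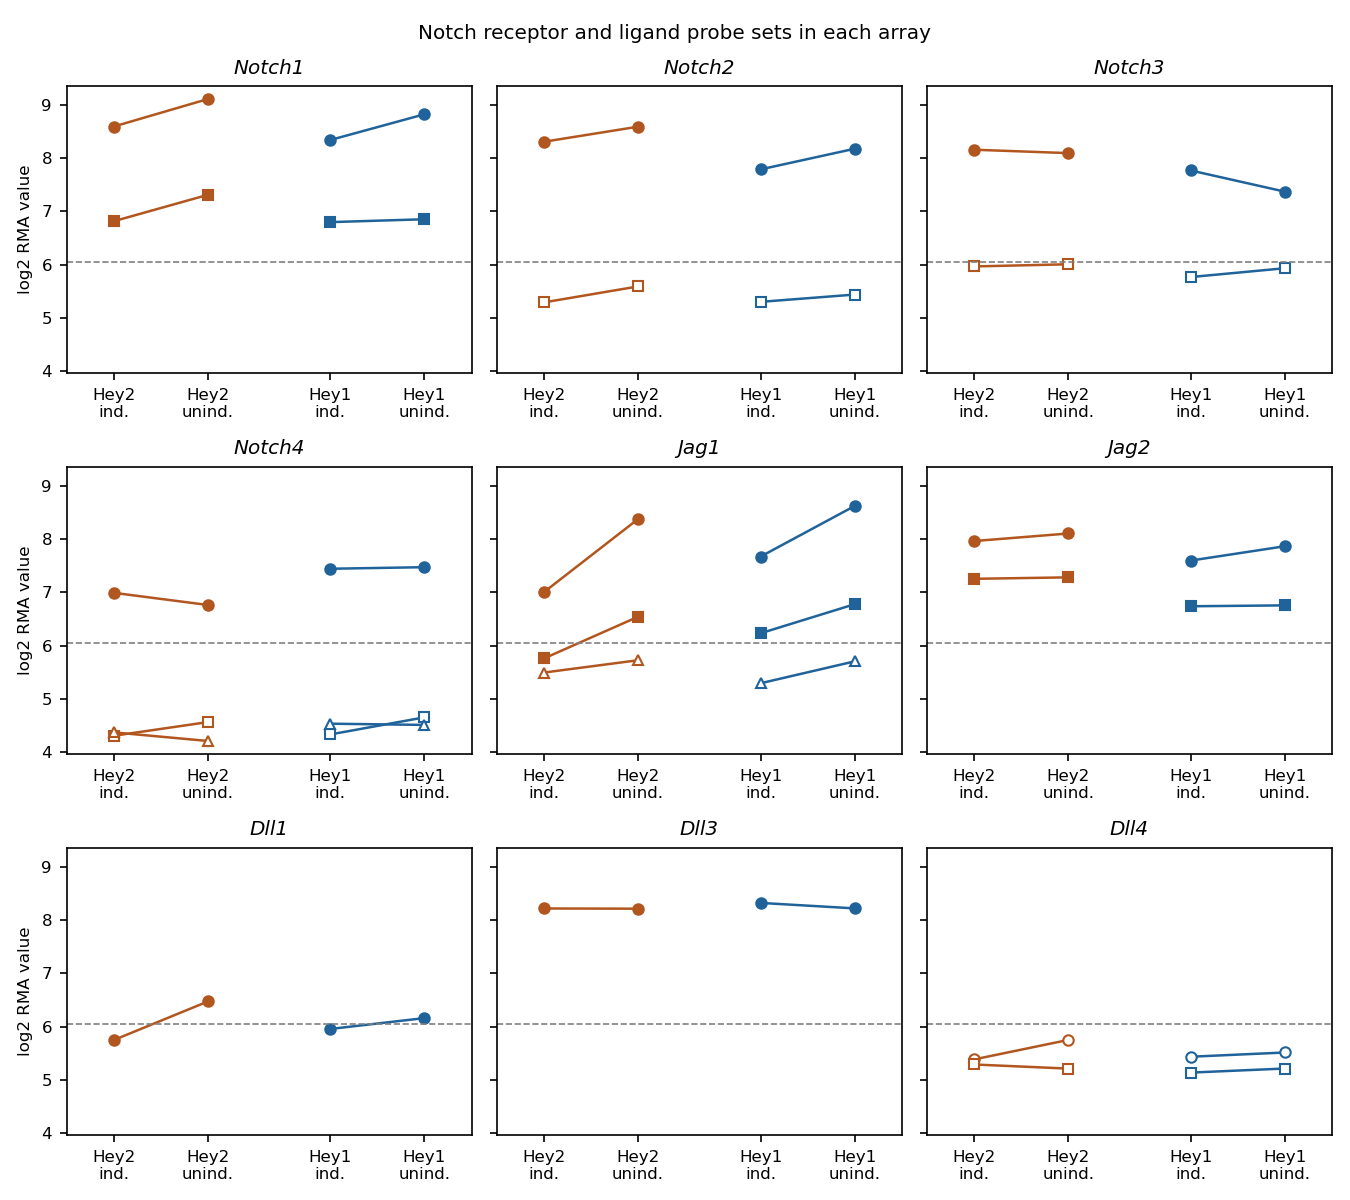
Log2 RMA value (y axis) of each probe set of the 9 genes in the 4 arrays (x axis, induced left of uninduced within the Hey2 line in orange and the Hey1 line in blue), where each marker shape is a probe set, open markers are probe sets below the level filter in all arrays and the dashed line is that filter at 6.05. The 3 Jag1 probe sets slope the same way in both lines, and heights are not comparable between probe sets.

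The Delta-like ligands did not move as a group. Dll1, a ligand of presomitic mesoderm and neural precursors, had 1 probe set, which read 5.75 in Hey2 induced cells, against 6.47 in Hey2 uninduced cells. In the Hey1 line it read 5.95 in induced cells, against 6.16 in uninduced cells. Both induced arrays were below both uninduced arrays, and below the filter, which Dll1 thus reached only through the uninduced arrays. The difference was -0.73 in the Hey2 line, where 181 of all compared probe sets were as low or lower, and -0.20 in the Hey1 line, where 2605 were.

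Dll3, a divergent ligand that does not activate Notch in neighbouring cells, read 8.22 in Hey2 induced cells, against 8.22 in Hey2 uninduced cells, and 8.32 in Hey1 induced cells, against 8.22 in Hey1 uninduced cells. Its 4 values spanned 0.11, the narrowest range of the 18 probe sets. Dll4, a ligand of arterial endothelium, stayed below the filter in every array at both probe sets. The probe set 1421827_at of Dll4 read 5.38 in Hey2 induced cells, against 5.75 in Hey2 uninduced cells, and 5.43 in Hey1 induced cells, against 5.51 in Hey1 uninduced cells. The probe set 1421826_at of Dll4 read 5.29 in Hey2 induced cells, against 5.21 in Hey2 uninduced cells, and 5.13 in Hey1 induced cells, against 5.21 in Hey1 uninduced cells. No level of Dll4 can be read from these values.

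Jag2, the other Jagged ligand gene, differed by less than Jag1. The probe set 1426430_at of Jag2 read 7.96 in Hey2 induced cells, against 8.11 in Hey2 uninduced cells, and 7.60 in Hey1 induced cells, against 7.87 in Hey1 uninduced cells. The probe set 1426431_at of Jag2 read 7.25 in Hey2 induced cells, against 7.28 in Hey2 uninduced cells, and 6.74 in Hey1 induced cells, against 6.76 in Hey1 uninduced cells. At each Jag2 probe set both Hey2-line arrays were above both Hey1-line arrays.

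Of the receptors, Notch1 was lower after induction at both of its probe sets, which disagreed on the size in the Hey1 line. The probe set 1418634_at of Notch1 read 8.59 in Hey2 induced cells, against 9.11 in Hey2 uninduced cells, and 8.34 in Hey1 induced cells, against 8.83 in Hey1 uninduced cells. The probe set 1418633_at of Notch1 read 6.81 in Hey2 induced cells, against 7.31 in Hey2 uninduced cells, and 6.80 in Hey1 induced cells, against 6.85 in Hey1 uninduced cells. At each probe set both induced arrays lay below both uninduced arrays. The differences in the Hey2 line were -0.52 and -0.50, and those in the Hey1 line were -0.48 and -0.05.

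Notch2 encodes a receptor close to Notch1 in build. Its brighter probe set read 8.31 in Hey2 induced cells, against 8.59 in Hey2 uninduced cells, and 7.79 in Hey1 induced cells, against 8.18 in Hey1 uninduced cells. Each induced array was below its own uninduced array, but the groups overlapped, since Hey2 induced lay above Hey1 uninduced. The dimmer Notch2 probe set, below the filter, had differences of -0.30 for the Hey2 line and -0.14 for the Hey1 line.

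Notch3, a receptor of vascular smooth muscle and pericytes, was the only one of the 4 receptor genes whose brightest probe set was higher in the induced array of both lines. That probe set read 8.16 in Hey2 induced cells, against 8.09 in Hey2 uninduced cells, and 7.77 in Hey1 induced cells, against 7.37 in Hey1 uninduced cells. The differences were 0.06 for the Hey2 line and 0.40 for the Hey1 line, where 823 of all compared probe sets were as high or higher. The other Notch3 probe set, just under the filter, had the opposite sign, with -0.04 for the Hey2 line and -0.17 for the Hey1 line, so the direction for Notch3 was not settled.

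Notch4, a receptor known from endothelium, passed the filter at 1 of its 3 probe sets. That probe set read 6.99 in Hey2 induced cells, against 6.76 in Hey2 uninduced cells, and 7.44 in Hey1 induced cells, against 7.47 in Hey1 uninduced cells. Both Hey1-line arrays were above both Hey2-line arrays. The other Notch4 probe sets read between 4.21 and 4.65 over all arrays and disagreed in sign.

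**Figure D2:**
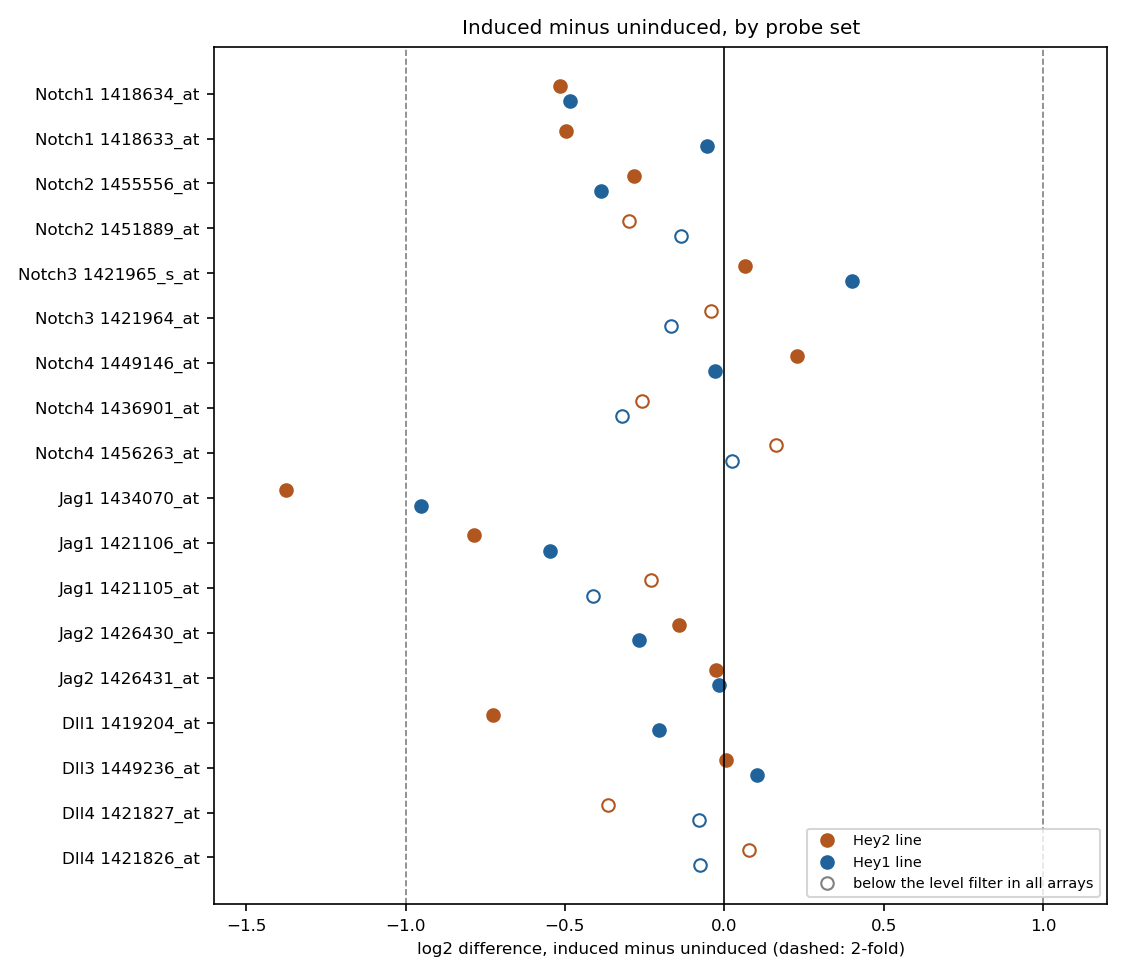
Log2 difference, induced minus uninduced (x axis), of each of the 18 probe sets (rows) in the Hey2 line (orange) and the Hey1 line (blue), with open points for probe sets below the level filter in all arrays and dashed lines at 2-fold. The brightest Jag1 probe set lies furthest left in both lines, at -1.37 and -0.95.

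Across all 18 probe sets, 13 were lower in the induced array of both lines, 3 were higher in both and 2 had opposite signs. Among all single-symbol probe sets, 32% were lower in both lines. The median difference of the 18 was -0.24 for the Hey2 line and -0.15 for the Hey1 line, beside -0.02 and -0.01 over all single-symbol probe sets. Receptors and ligands contributed 6 of 9 and 7 of 9 probe sets lower in both lines. Both induced arrays lay below both uninduced arrays in 9 of the 18 probe sets, and above them in 0. Among all single-symbol probe sets these shares were 18.6% and 13.9%.

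Differences of 2-fold or more were rare at any gene. In the Hey2 line 1 of the 11 probe sets above the filter, the brightest of Jag1, was lower by 2-fold or more, where 0.194% of compared probe sets were, and 0 were higher by as much, where 0.82% were. In the Hey1 line 0 were lower by 2-fold or more, where 0.0427% were, and 0 higher by as much, where 0.341% were. At 1.5-fold, 2 Jag1 probe sets and the Dll1 probe set were lower in the Hey2 line, where 2.18% of compared probe sets were, and 0 were higher, where 3.78% were. Dll1 was counted there only because its uninduced arrays reached the filter, and with an offset of 32 added to the linear values Dll1 (-0.50) and Jag1 at 1421106_at (-0.54) no longer passed 1.5-fold. In the Hey1 line 1 Jag1 probe set was lower by 1.5-fold or more, where 0.64% were, and 0 were higher, where 1.59% were. The brightest Jag1 probe set was the 1 member lower by 1.5-fold or more in both lines, where 0.199% of compared probe sets were.

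**Figure D3:**
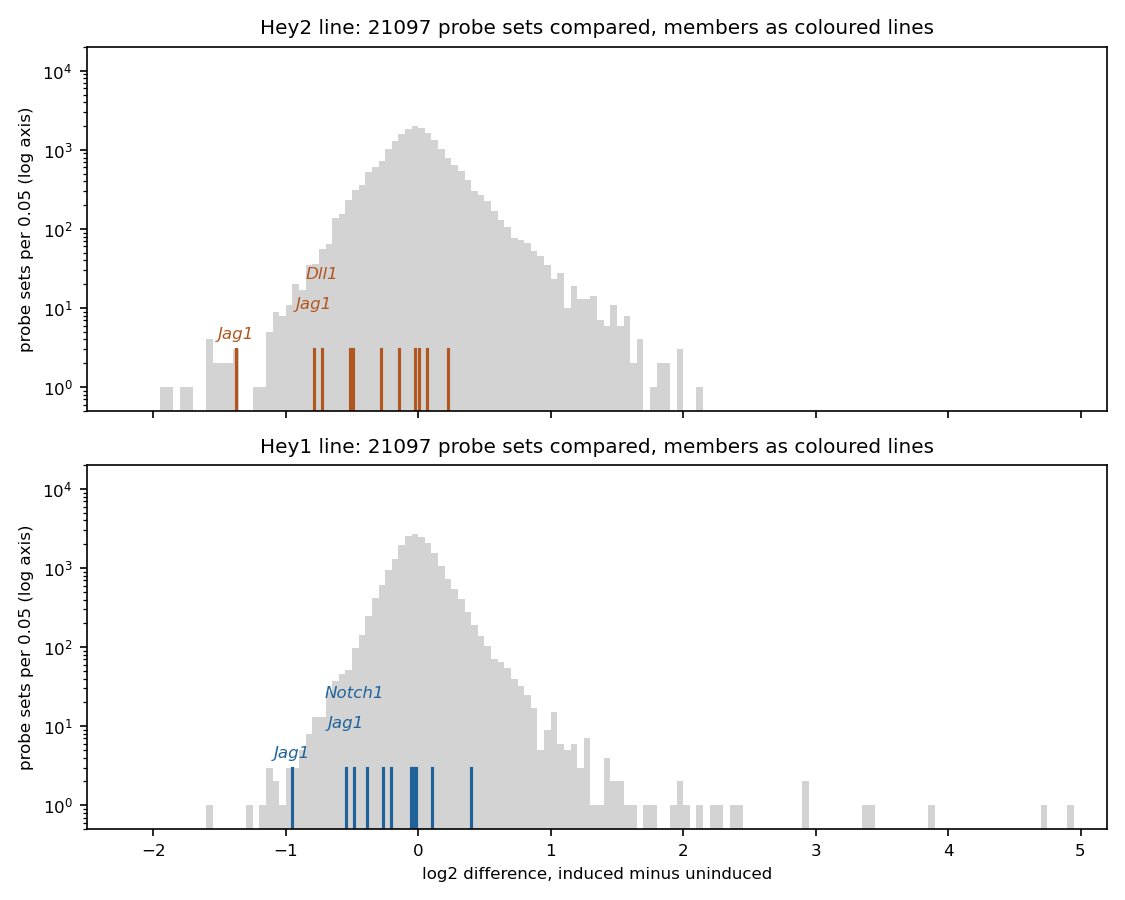
Number of compared probe sets (y axis, log scale) per bin of log2 difference, induced minus uninduced (x axis), in grey, with the member probe sets above the level filter as coloured lines and the 3 lowest named, for the Hey2 line (top) and the Hey1 line (bottom). Jag1 lies furthest out in the lower tail in both lines, and the other members lie nearer the bulk.

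The lines also differed at some of these genes. Between the uninduced arrays, Notch3 was higher in the Hey2 line by 0.72 (8.09 in Hey2 uninduced cells, against 7.37 in Hey1 uninduced cells). Notch4 was lower in the Hey2 line by 0.71 at its brightest probe set (6.76 in Hey2 uninduced cells, against 7.47 in Hey1 uninduced cells). These were the 2 members past 1.5-fold there, 1 higher, where 4.12% of compared probe sets were, and 1 lower, where 5.28% were. At 2-fold, 0 of the 11 differed in either direction, where 0.749% of compared probe sets were higher and 1.23% lower.

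Between the uninduced arrays the brightest Jag1 probe set differed by -0.25, Hey2 line minus Hey1 line, which is less than its difference within either line. Between the induced arrays it differed by -0.67, the one member past 1.5-fold there, where 2.91% of compared probe sets were lower by that much and 4.04% higher. At 2-fold, 0 members differed there, where 0.735% of compared probe sets were lower and 0.697% higher. Taken against the uninduced array of the other line, the Jag1 difference was -1.62 for Hey2 induced and -0.71 for Hey1 induced. The same exchange gave -0.23 and -0.77 for the brighter Notch1 probe set and -0.41 and -0.52 for Dll1. It turned the sign of Notch2 in the Hey2 line (0.13), of Notch3 in the Hey1 line (-0.33) and of Notch4 in both (-0.48 for the Hey2 line and 0.68 for the Hey1 line). It also turned both Jag2 probe sets in the Hey2 line (0.10 and 0.50) and Dll3 there (-0.0014).

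limma was used to test a response that both lines share, which treats the induction of Hey2 and that of Hey1 as repeats of a single treatment and blocks on the line. The 4 arrays leave this fit 1 residual degree of freedom. An absence of calls therefore does not show equal levels. None of the members passed an adjusted p of 0.05 over the 21097 compared probe sets, and 0 of all compared probe sets did (0% in each direction). At an unadjusted p of 0.05, 5 of the 11 member probe sets tested were lower and 0 higher, where 5.46% and 6.41% of compared probe sets were. Both Jag1 probe sets above the filter were among the 5. The mean difference of Jag1 was -1.16 ± 0.14 (SE, 2 lines, adjusted p = 0.321 by limma) at its brightest probe set and -0.67 ± 0.11 (adjusted p = 0.327 by limma) at 1421106_at. That of Notch1 was -0.50 ± 0.09 (adjusted p = 0.327 by limma) at its brighter probe set. Notch2 had -0.34 ± 0.09 (adjusted p = 0.379 by limma) and Dll1 -0.47 ± 0.16 (adjusted p = 0.405 by limma). Dll1, 1 of the 5 at an unadjusted p of 0.05, entered the test only through its uninduced arrays.

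The call depended on how limma estimated the spread. With a variance prior trended on level and fitted robustly, the brightest Jag1 probe set (adjusted p = 0.00427) and the brighter Notch1 probe set (adjusted p = 0.03) passed as lower, and 0 members passed as higher. With that prior 0.692% of compared probe sets passed as lower and 0.939% as higher. Over all alternatives the adjusted p of Jag1 ran from 0.00427 to 1, the last without the line block.

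Because Hey factors are described as binding E-box-like sites, the promoter windows of the members were searched on both strands for CACGTG and for CACGCG, which as CGCGTG is read from the opposite strand, and for the Rbpj motif GTGGGAA. Windows run from 250 bases before to 50 bases after a RefSeq gene start on GRCm38.p6, and all 9 genes had an entry, Dll1 with 2. No match overlapped another. The 4 windows below belong to Jag1, Dll1 and Notch1, which were lower in both lines, and to Dll3, whose values had the narrowest range over the 4 arrays. Notch2 and Jag2 were lower in both lines too, and their windows are not printed. Capitals mark CACGCG on either strand, and each sequence runs 5′ to 3′ along its gene, all of them from the minus strand (Jag1 at chr2:137116471-137116770, Dll1 at chr17:15376883-15377182, Notch1 at chr2:26503773-26504072, Dll3 at chr7:28301736-28302035).
Jag1: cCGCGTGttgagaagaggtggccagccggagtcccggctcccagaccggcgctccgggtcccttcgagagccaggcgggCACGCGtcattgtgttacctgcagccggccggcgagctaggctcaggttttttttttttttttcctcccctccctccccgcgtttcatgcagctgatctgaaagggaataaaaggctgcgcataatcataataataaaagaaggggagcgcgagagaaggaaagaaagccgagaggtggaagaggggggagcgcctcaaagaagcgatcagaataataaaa
Dll1: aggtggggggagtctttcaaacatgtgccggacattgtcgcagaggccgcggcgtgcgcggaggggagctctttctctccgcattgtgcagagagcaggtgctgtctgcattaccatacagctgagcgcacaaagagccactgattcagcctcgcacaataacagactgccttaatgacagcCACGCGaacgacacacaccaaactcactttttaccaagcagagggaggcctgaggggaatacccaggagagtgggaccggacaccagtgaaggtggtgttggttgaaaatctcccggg
Notch1: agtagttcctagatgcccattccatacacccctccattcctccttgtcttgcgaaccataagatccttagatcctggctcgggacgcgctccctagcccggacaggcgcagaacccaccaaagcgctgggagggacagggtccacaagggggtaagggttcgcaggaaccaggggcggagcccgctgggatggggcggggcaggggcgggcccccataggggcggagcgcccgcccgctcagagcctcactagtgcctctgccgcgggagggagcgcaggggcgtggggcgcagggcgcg
Dll3: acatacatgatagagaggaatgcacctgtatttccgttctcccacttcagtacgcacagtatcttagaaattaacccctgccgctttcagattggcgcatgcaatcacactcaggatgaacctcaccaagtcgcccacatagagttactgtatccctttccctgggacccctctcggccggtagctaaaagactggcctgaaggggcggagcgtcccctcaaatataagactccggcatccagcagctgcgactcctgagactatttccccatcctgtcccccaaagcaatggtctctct

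The Jag1 window held CACGCG at 2 places, starting at -249, on the opposite strand, and at -171, counted from the gene start. The Dll1 window printed here held it once, at -68, and the other Dll1 window, the Notch1 window and the Dll3 window held none. Single matches also stood in the windows of Notch2, Jag2 and Dll4, so 5 of 10 member windows had a match, beside 9.27% of 32851 windows over all genes. CACGTG was in 0 of 10 member windows and 7.15% of all windows, and GTGGGAA in 0 of 10 and 6.38%. Jag2, whose differences were small, had a match, and Notch1, lower in both lines, had none. The member windows were richer in G and C, with a median of 63.2% against 52.7% over all windows, and the shares were not matched for it. These are matches of letters, and binding was not measured here.

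Jag1 was the only member whose brightest probe set spanned at least 1 on the log2 scale over the 4 arrays. Among 11594 other genes above the filter, after leaving out clone names and predicted genes, the profile nearest to it by root mean square distance over the 4 arrays, after each gene's own mean was subtracted, was that of Lefty2, which encodes a Nodal antagonist (0.088). Next came Msrb2, a methionine sulfoxide reductase gene (0.19), the Notch target gene Hes1 (0.22), the ubiquitin ligase gene Trim13 (0.23) and the surface glycoprotein gene Cd24a (0.24). Lefty2 read 6.75 in Hey2 induced cells, against 8.25 in Hey2 uninduced cells, and 7.45 in Hey1 induced cells, against 8.59 in Hey1 uninduced cells. With 4 arrays, of which 1 stands for each group, such likeness is a description.

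The other genes of the Notch pathway were taken from lists ordered by role, and 54 of 72 were above the filter. Of these 54, 1 was lower by 2-fold or more in the Hey2 line, where 0.24% of 12098 genes were, and 0 in the Hey1 line, where 0.0331% were. None was higher by as much in the Hey2 line, where 0.686% were, or in the Hey1 line, where 0.438% were. Their median difference was -0.02 for the Hey2 line and -0.0027 for the Hey1 line, beside -0.02 and -0.01 over all genes compared. By limma 0 of the 54 passed in either direction with either prior. At an unadjusted p of 0.05, 7 were lower and 0 higher, where 5.46% and 6.41% of compared probe sets were. With the robust prior 5 were lower and 1, Dtx4, was higher, where 1381 and 1710 of the 21097 compared probe sets were.

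Target genes of Notch held the 1 gene past 2-fold. Hes1, a repressor gene that Notch activates directly, read 8.42 in Hey2 induced cells, against 9.53 in Hey2 uninduced cells, and 8.97 in Hey1 induced cells, against 9.46 in Hey1 uninduced cells. Its mean difference was -0.80 ± 0.18 (SE, adjusted p = 0.364 by limma, and 0.0836 with the robust prior). Ccnd1, which encodes cyclin D1, read 9.54 in Hey2 induced cells, against 10.5 in Hey2 uninduced cells, and 10.6 in Hey1 induced cells, against 10.9 in Hey1 uninduced cells. Of the 9 target genes above the filter, 9 were below 0 for the Hey2 line and 7 for the Hey1 line, where 6566 and 6422 of the 12098 genes were. Hes7 and Heyl, both among the 9, reached the filter only through Hey2 uninduced (6.07 and 6.16). Their sign in the Hey2 line was thus fixed by the filter. Hey1 itself was also among the 9. The medians of the 9 were -0.25 and -0.05.

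None of the genes that handle the receptors and ligands passed 2-fold. Among the 7 ligand endocytosis genes, the ubiquitin ligase gene Mib2 had -0.28 for the Hey2 line and -0.38 for the Hey1 line, and its relative Mib1 had 0.11 and 0.16. Of the 4 glycosylation genes, Pofut1, which adds fucose to Notch, had 0.28 and 0.11, and the Fringe gene Rfng had -0.10 and -0.39. Of the 7 cleavage genes, the gamma-secretase gene Psen2 had 0.33 and 0.14 and the convertase gene Furin 0.08 and 0.20.

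Nor did any gene of receptor turnover, the nuclear complex or the noncanonical ligands. Of the 10 receptor turnover genes, the ubiquitin ligase genes Dtx1 and Dtx4 had -0.43 and 0.08 for the Hey2 line and -0.32 and 0.64 for the Hey1 line. Among the 11 genes of the nuclear complex, Rbpj had 0.20 for the Hey2 line and 0.07 for the Hey1 line, and the corepressor gene Spen -0.13 and -0.16. Of the 6 noncanonical ligand genes, Dlk2 had -0.37 and -0.20 and Mfap2 -0.50 and -0.04. Another probe set above the filter had the opposite sign in at least 1 line for Mib1, Pofut1, Psen2, Dtx4, Dlk2 and Mfap2.

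**Figure D4:**
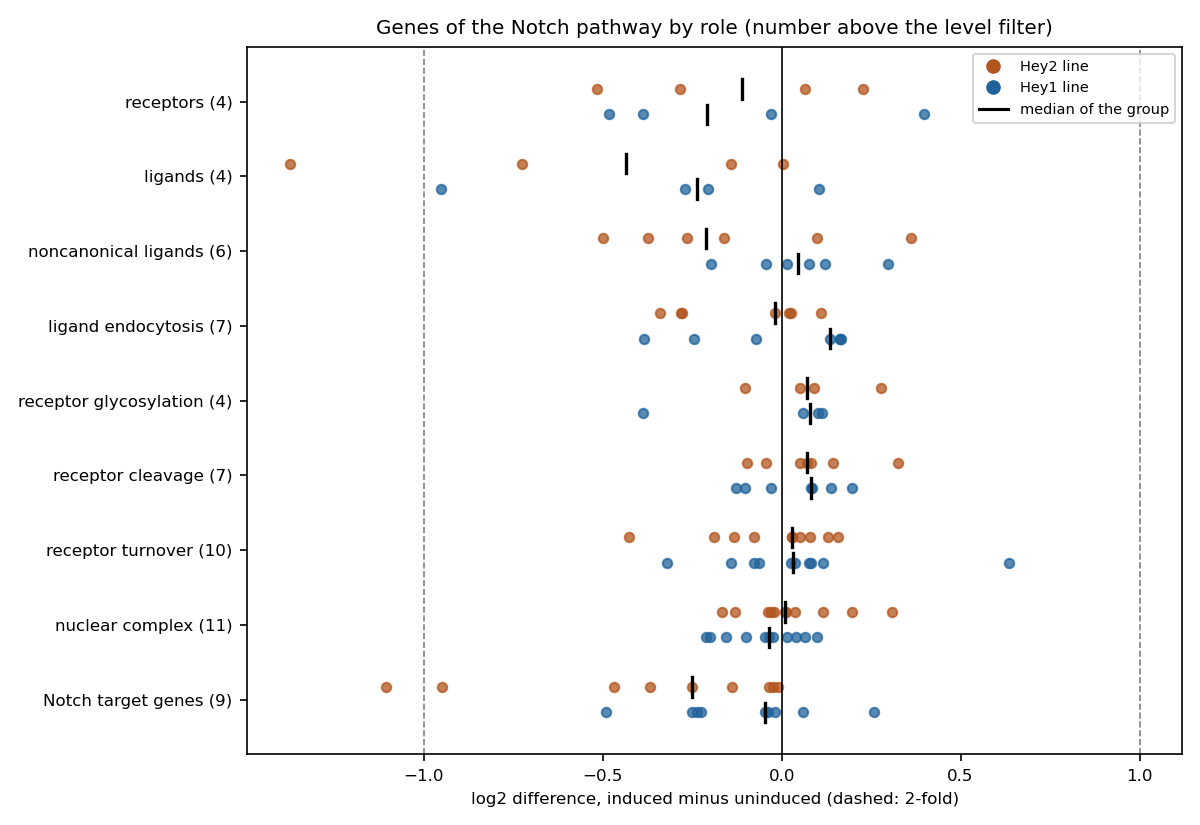
Log2 difference, induced minus uninduced (x axis), of pathway genes above the level filter, grouped by role (rows, number of genes in brackets), in the Hey2 line (orange) and the Hey1 line (blue), with 1 probe set a gene, black bars at group medians and dashed lines at 2-fold. Jag1 and the target gene Hes1 are the 2 genes past 2-fold, both in the Hey2 line.

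Markers of other cell types were read beside these genes, since in a bulk sample fewer cells of a type and less RNA per cell cannot be told apart. Levels of each list were summed on the linear scale and are given as log2. For 5 smooth muscle markers, 4 of them above the filter, the sum was 9.88 in Hey2 induced cells, against 11.0 in Hey2 uninduced cells. It was 8.86 in Hey1 induced cells, against 8.98 in Hey1 uninduced cells. Myh11, a marker of mature smooth muscle, was below the filter in all arrays. Acta2 had -1.51 for the Hey2 line and -0.13 for the Hey1 line, Myl9 -1.11 and -0.29, and Tagln -0.87 and 0.18. Cnn1, with 0.07 and -0.76, reached the filter only through Hey1 uninduced. The sum of 5 measured neural progenitor markers, 3 of them above the filter, was 8.39 in Hey2 induced cells, against 8.87 in Hey2 uninduced cells, and 8.88 in Hey1 induced cells, against 9.16 in Hey1 uninduced cells, with Olig2 and Neurog2 below the filter. At their brightest probe sets the 3 above the filter differed among themselves. Sox1 had -1.07 for the Hey2 line and -0.78 for the Hey1 line, Nes -0.45 and 0.17, and Pax6 -0.13 and -0.06. Another probe set above the filter had -0.36 and -0.0093 for Sox1, -0.98 and 0.31 for Nes, and -0.61 and -0.34 for Pax6. The part of either list in the differences of Jag1, Notch1 and Dll1 was not tested.

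By the brightest probe set of each gene, fibroblast markers had 2 of 9 genes above the filter and endothelial markers 3 of 7. Their sums ran from 8.48 to 9.06 and from 9.0 to 9.26 over the 4 arrays. The fibroblast marker Thy1 differed by -1.62 between the uninduced arrays, Hey2 line minus Hey1 line. A dimmer Pdgfrb probe set had 1.59 for the Hey2 line and 0.54 for the Hey1 line. It reached the filter only through the induced arrays (6.38 in Hey2 induced and 6.06 in Hey1 induced). Mesoderm, endoderm and trophoblast markers had 2 of 4 measured genes, 1 of 5 and 2 of 5 above the filter, and their sums ran from 7.85 to 8.16, from 7.83 to 8.0 and from 9.95 to 10.05. RNA quality was read from the log2 excess of the 3′ over the 5′ control probe set of the transferrin receptor, which was 0.96 in Hey2 induced cells, against 0.67 in Hey2 uninduced cells, and 0.84 in Hey1 induced cells, against 0.95 in Hey1 uninduced cells. For pyruvate carboxylase it was 1.56 in Hey2 induced cells, against 1.33 in Hey2 uninduced cells, and 1.43 in Hey1 induced cells, against 1.38 in Hey1 uninduced cells, and for beta-actin and Gapdh it spanned less over the arrays, from 0.39 to 0.51 and from 0.012 to 0.042. The part of RNA quality in the differences was not tested.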

How the data were processed

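Expression was measured on Affymetrix arrays of 4 samples, 1 per group, each assigned from its title. The authors deposited log2 values, 1 per probe set, made with RMA, per the submitters' processing notes. RMA corrects background, quantile-normalises and summarises probes. No source used here gives its version, software or chip description. After sorting, each array differed by at most 0.0024 at any rank from the next in the order Hey1 induced, Hey1 uninduced, Hey2 induced, Hey2 uninduced. A shift of all genes therefore cannot be seen. The number of arrays limits the precision. Depth has no counterpart.

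A single gene symbol was annotated for 34958 of 45101 probe sets, several for 932 and none for 9211. Probe sets with a single symbol were compared if the highest of 4 values reached the median of all values, which left 21097. Gene lists used the probe set with the highest mean (12098 genes). Differences were counted at 2-fold. For the response shared by both lines, limma 3.58.1 (R 4.3.3) took the line as a block, with lmFit and eBayes. Benjamini-Hochberg adjustment ran over all compared probe sets, with a threshold of 0.05. A check on simulated data required the larger simulated differences to be estimated at near their size on average. It did not require any of them to pass 0.05. Nothing in the labels says that arrays came from separate cultures. The p-values reflect only how far the differences of the 2 lines disagree, moderated by a prior over all compared probe sets. A true difference in response between the lines counts there as error. Python 3.11.15, numpy 2.4.6, pandas 2.3.3 and matplotlib 3.10.9 were used.

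The members, gene lists and alternatives were chosen with earlier results of these data known. Named genes were the members, pathway genes past 2-fold or with the 2 largest mean differences per list, and the 5 profiles nearest to a member with a range of at least 1. Markers named singly were chosen after their values were seen. Promoters are from RefSeq (GRCm38.p6). Alternatives were no filter, a filter at the 75th percentile, cyclic loess, median centring, an offset of 32, 1 value a gene, a 1.5-fold threshold, the other line's uninduced array, a trended robust prior and no line block.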

Additional observations from a re-analysis of the deposited data

Results flagged for a closer look

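A Notch4 probe set and a Dll4 probe set had opposite signs in the lines, and neither difference between lines was tested. For Notch4, at 1449146_at, the difference was 0.23 for the Hey2 line and -0.03 for the Hey1 line, a gap of 0.26. For Dll4, at 1421826_at and below the level filter in all arrays, it was 0.08 for the Hey2 line and -0.08 for the Hey1 line, a gap of 0.15. The scaled median absolute deviation of the difference over all compared probe sets was 0.23 for the Hey2 line and 0.16 for the Hey1 line, so both values of each probe set lay near the bulk.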

How the results depend on the processing

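No paired analysis was possible because each group has 1 array with no replicate number, beyond the line block of the common response. Without that block (no replicate block) 0 member probe sets passed in either direction, and the adjusted p of Jag1 was 1. In the Hey2 line the count of members lower by 2-fold or more was 0 with probe sets averaged by gene and 2 against the other line's uninduced array. At a 1.5-fold threshold it was 3, and the Hey1 line had 1. With the offset of 32, which shrinks differences at low levels, 2 of those 3 fell short of 1.5-fold, Dll1 at -0.50 and Jag1 1421106_at at -0.54. Between uninduced arrays that threshold gave 1 member higher and 1 lower, and between induced arrays 1 lower. With the trended robust prior limma called 2 members lower, among 198 probe sets higher and 146 lower over all. Counts past 2-fold over all compared probe sets in the Hey2 line, 214, became 65 with the stricter filter, 85 with the offset, 112 with the highest probe set a gene, 77 with the mean of probe sets, 1257 at 1.5-fold and 355 against the other uninduced array. In the Hey1 line 81 became 27 with the stricter filter, 41 with the offset, 47 with the mean of probe sets, 470 at 1.5-fold and 660 against the other uninduced array. Between uninduced arrays 418 became 177, 207, 237, 160 and 1983 with the stricter filter, the offset, the highest probe set, the mean of probe sets and the 1.5-fold threshold, and between induced arrays 302 became 134, 166, 195, 130 and 1467. The common Jag2 difference at 1426431_at turned to 0.011 with cyclic loess. Fewer probe sets were compared under the stricter filter and with 1 value a gene, and the cause was not tested for the others. The brightest Jag1 probe set was lower in both lines under every alternative that kept it, from -1.62 to -1.19 in the Hey2 line and from -0.95 to -0.71 in the Hey1 line.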
